A study of Rattus norvegicus with 9 samples.

Results

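T-box genes encode a family of DNA-binding transcription factors that pattern the embryonic heart, lung and limbs. RNA levels of 6 of them, Tbx2, Tbx3, Tbx4, Tbx5, Tbx18 and Tbx20, were followed in cultured rat cardiac fibroblasts of 3 ages. They are 6 of the 17337 genes in the count table, were taken by symbol, and all 6 were among the 11337 genes with enough counts to test. The set was chosen by family, with the counts of Tbx4 in fetal against neonatal and adult libraries already known, so the values of Tbx4 are given as a description with no test. The other 5 genes were tested between ages, but were not picked blind to these data.

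RNA was sequenced from cardiac fibroblasts, the matrix-producing cells of the heart, of Sprague Dawley rats. The fetal group was isolated at embryonic day 18, the neonatal group on postnatal day 1 and the adult group at 7 weeks, with 3 libraries in each. No genetic change or drug is named in the labels for any group. What all 9 share is culture: cells of passage 0 were grown until confluent in DMEM with fetal bovine serum, penicillin/streptomycin and ascorbic acid, and lysed in TRIzol. The labels name no cell sort and do not say whether the libraries of an age came from separate animals or flasks, so the p-values below measure only the spread between these libraries, which may be technical.

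T-box proteins share a DNA-binding domain, the T-box, which recognises a short motif upstream of or within target genes, and different members activate or repress transcription there. Tbx2 and Tbx3 are repressors that keep chamber genes off in the atrioventricular canal and, for Tbx3, in the pacemaker and conduction tissue. Tbx5 activates chamber and conduction genes together with Nkx2-5 and Gata4. Tbx20 acts in cardiomyocytes, valves and endocardium, Tbx18 marks the epicardium, the venous pole and later pericytes and smooth muscle, and Tbx4 is known for hindlimb and lung mesenchyme. Bone morphogenetic proteins (BMPs), retinoic acid and hedgehog signals act upstream of several of them.

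Library totals ran from 13392825 to 22850491 assigned counts, with the 3 adult libraries the shallowest (13392825 to 13810825). The fibroblast markers fitted the label in part: their summed level was 23654 to 50437 counts per 1000000 (CPM, on library sizes scaled by the TMM method) in fetal, 67927 to 74193 in neonatal and 22236 to 29822 in adult libraries, and none of the 10 was at 0 throughout an age, but Col1a2, a collagen chain that fibroblasts make, was at or below 0.976 CPM in all 9 libraries. Col1a1, another collagen gene of the list, stood at 11890 to 40025 CPM in the same libraries. Whether the low Col1a2 level comes from a fault in annotation or counting was not tested. The marker sum is weighted to the most abundant markers, and single fibroblast markers differed in course. Of the 10, 4 were higher in every neonatal library than at any other age and 3 in every adult one. In turn, 3 were lower in every fetal library than at any other age and 2 in every adult one. Markers of other cells were also present and moved with age. Cardiomyocyte markers summed to 8824 to 10613 CPM in fetal, 4789 to 5255 in neonatal and 311 to 323 in adult libraries, macrophage markers to 6.97 to 54.1, 142 to 157 and 3679 to 5213 CPM, and mural cell markers to 1004 to 2083, 3393 to 3508 and 1476 to 1683 CPM. In bulk RNA, fewer cells of a type and less RNA per cell cannot be told apart. Fetal replicate 3 stood apart: it had the lowest fibroblast sum of the fetal libraries (23654 CPM) and the highest lung epithelial sum (145 CPM, against 6.37 and 6.66 in the other two), and the fold changes of Tbx3, Tbx4, Tbx5 and Tbx18, or their fetal means, are also given without it.

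The 6 genes sit in 2 adjacent pairs and 2 lone loci on rn6, the genome build of the count table. Tbx2 (chromosome 10, 73278999 to 73289940, plus strand, 7 exons) lies 43.2 kb from Tbx4 (73333119 to 73362783, plus strand, 9 exons), and no other gene of the table lies between them. Tbx5 (chromosome 12, 42099833 to 42146841, plus strand, 8 exons) lies 334 kb from Tbx3 (42481152 to 42492328, minus strand, 8 exons), with 0 genes wholly between them. Tbx20 (25864448 to 25904570, minus strand, 7 exons) and Tbx18 (95359354 to 95387363, minus strand, 8 exons) share chromosome 8 but are 69455 kb apart, with 490 genes between. Exon counts are those of the merged exon intervals in the table. By annotated span, 2 other genes cover Tbx5 and reach into the gap towards Tbx3, and 1 covers Tbx18. Their exons in the table do not overlap those of the T-box genes.

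Promoters are shown because Tbx4 and Tbx5 were highest in fetal cultures while Tbx18 and Tbx20 were highest in neonatal ones, so that the 2 patterns can be set against sequence. They come from RefSeq, assembly GRCr8, and run 5′ to 3′ on the gene's strand from 250 bases before to 50 after the annotated start. Coordinates and strands are those of GRCr8, where Tbx5 is on the minus strand, and are not comparable with the rn6 ones above. RefSeq entries were matched for 4 of the 6 genes; Tbx2 and Tbx3 were not matched. Windows were searched on both strands for 6 motifs. These were the half-site of T-box proteins, AGGTGT; the box bound by Sp factors, GGGCGG; the box bound by NF-Y, CCAAT; the box of core promoters bound by the TATA-binding protein, TATAAA; a site of GATA factors, AGATAA; and an E-box of basic helix-loop-helix factors, CAGCTG, which reads the same on both strands. Capitals mark the matches, which do not overlap one another; in Tbx18 and Tbx20 the match is on the opposite strand, so its reverse complement appears in capitals.

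Tbx4, chr10:71228306-71228605, plus strand: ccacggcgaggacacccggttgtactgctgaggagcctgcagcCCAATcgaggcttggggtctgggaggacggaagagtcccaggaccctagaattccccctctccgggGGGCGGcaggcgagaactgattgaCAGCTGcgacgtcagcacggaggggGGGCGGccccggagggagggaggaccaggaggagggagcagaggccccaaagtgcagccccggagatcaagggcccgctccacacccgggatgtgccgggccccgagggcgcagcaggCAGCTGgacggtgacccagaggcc
Tbx5, chr12:42395310-42395609, minus strand: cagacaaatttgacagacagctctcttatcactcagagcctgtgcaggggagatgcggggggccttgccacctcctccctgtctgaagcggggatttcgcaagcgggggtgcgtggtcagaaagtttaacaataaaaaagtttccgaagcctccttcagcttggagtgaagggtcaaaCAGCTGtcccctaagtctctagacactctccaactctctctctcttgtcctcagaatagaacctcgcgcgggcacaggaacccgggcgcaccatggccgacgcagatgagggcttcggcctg
Tbx18, chr8:97559916-97560215, minus strand: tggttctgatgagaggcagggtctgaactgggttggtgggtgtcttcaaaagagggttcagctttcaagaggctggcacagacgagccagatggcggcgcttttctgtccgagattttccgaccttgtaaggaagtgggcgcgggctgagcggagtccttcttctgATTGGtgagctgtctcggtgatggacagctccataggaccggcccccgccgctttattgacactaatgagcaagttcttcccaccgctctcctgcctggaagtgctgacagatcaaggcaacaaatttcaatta
Tbx20, chr8:31533960-31534259, minus strand: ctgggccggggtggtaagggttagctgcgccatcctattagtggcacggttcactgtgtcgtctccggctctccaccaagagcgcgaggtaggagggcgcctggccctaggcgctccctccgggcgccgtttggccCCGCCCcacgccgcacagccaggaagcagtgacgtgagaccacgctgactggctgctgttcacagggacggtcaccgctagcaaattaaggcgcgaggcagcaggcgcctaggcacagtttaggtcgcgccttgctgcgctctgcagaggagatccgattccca

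The Tbx4 window was 70% G or C and held 2 Sp boxes, 1 NF-Y box and 2 E-boxes. The Tbx5 window (56% G or C) held 1 E-box, the Tbx18 window (54%) 1 NF-Y box and the Tbx20 window (65.3%) 1 Sp box. None of the 4 windows held the T-box half-site, the TATA box or the GATA site in these letters. Over 33469 RefSeq promoters of the same length, the Sp box was found in 33.1%, the NF-Y box in 37.5%, the E-box in 15.1%, the TATA box in 14.2%, the T-box half-site in 13.6% and the GATA site in 11.6%. The E-box was thus found in both windows of the genes highest in fetal cultures and in neither of the genes highest in neonatal cultures, which with 4 windows is a description and not a site.

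Tbx4 stood highest in fetal and lowest in neonatal cultures. Its level was 39.6, 38.5 and 53.3 CPM in the fetal libraries, 0.771, 0.697 and 0.777 CPM in the neonatal and 5.05, 3.18 and 2.02 CPM in the adult libraries. The ages did not overlap, and the order was fetal, adult, neonatal rather than one that followed age. In counts, 733 to 1003 reads per fetal library stood against 12 to 15 per neonatal and 27 to 66 per adult library, so the neonatal level was low but above 0. The fetal mean, 43.8 ± 8.24 CPM (SD, n = 3), was 58.5 times the neonatal mean (0.748 ± 0.0443 CPM) and 12.8 times the adult mean (3.42 ± 1.53 CPM), and the adult mean was 4.57 times the neonatal one. The fitted log2 differences were -5.86 from fetal to neonatal, -3.68 from fetal to adult and 2.18 from neonatal to adult cells. The first ranked 11 from the lowest of 11337 genes, the second 437 from the lowest, and the third 760 from the highest. The Tbx4 counts were known beforehand, so these ranks are a description and no test. Without fetal replicate 3 the fetal mean was 39.0 CPM.

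Tbx4 is a known marker of lung and hindlimb mesenchyme, and markers of both were read beside it. Of 4 lung mesenchyme markers in the table, Hoxb5, a homeobox gene of the lung and gut mesoderm, stood at 4.70, 4.06 and 3.83 CPM in fetal libraries, at most 0.139 in neonatal and 0 in adult ones. Fgf10, the growth factor that drives lung branching, went the other way, with 2.86, 2.20 and 4.2 CPM in fetal, 8.22 to 9.85 in neonatal and 10.2 to 15 in adult libraries. Their summed level over the 4 genes was 6.53 to 8.08 CPM in fetal, 8.48 to 10.2 in neonatal and 11.6 to 18.7 in adult libraries. Pitx1, which specifies the hindlimb, was at 0.054, 0 and 0.797 CPM in fetal libraries and at 0 in the other 6, and the 8 hindlimb markers summed to 1.89, 1.499 and 15.9 CPM in fetal, 1.71 to 2.78 in neonatal and 4.44 to 5.62 in adult libraries. The 8 did not move alike: 1 was higher in every fetal library than at any other age, and 2 were higher in every adult one. Of the 11 lung epithelial markers in the table, 3 were higher in every fetal library than at any other age, and all 3 were highest in fetal replicate 3. Nkx2-1, the lung and thyroid factor, was at 9.83 CPM there and at 0.108 and 0.132 in the other fetal libraries. Cldn18 stood at 58.5 against 1.35 and 1.15, and the general epithelial gene Epcam at 47.0 against 0.702 and 0.529. Other listed markers were also highest there, while the surfactant genes Sftpa1 and Sftpb were at 0 in every library. Napsa went the other way, at 0 in every fetal library and 11.2 to 12.9 CPM in adult ones. The 11 genes summed to 6.37, 6.66 and 145 CPM in fetal, 3.63 to 4.41 in neonatal and 15.9 to 17.8 in adult libraries. Tbx4 was 1.36 times as high in fetal replicate 3 as in the mean of the other 2 fetal libraries. The part of lung or limb cells in the Tbx4 level was not tested.

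**Figure D1:**
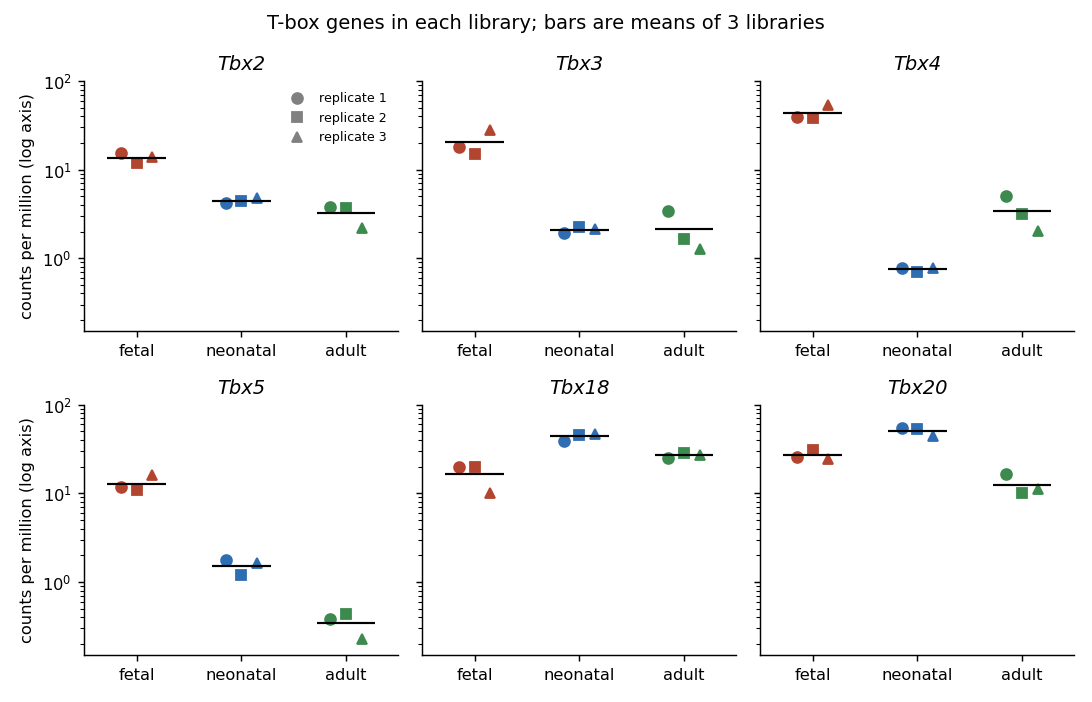
Level of each T-box gene in every library, in CPM on a log axis, by age; marker shapes stand for replicates 1 to 3 and bars for the mean of 3 libraries. Tbx2, Tbx3, Tbx4 and Tbx5 lie highest in the fetal libraries (Tbx4 at 38.5 to 53.3), whereas Tbx18 and Tbx20 lie highest in the neonatal ones.

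Tbx5, the activator of chamber genes, declined at each step. It was at 11.7, 10.8 and 15.9 CPM in fetal, 1.76, 1.21 and 1.62 CPM in neonatal and 0.383, 0.433 and 0.225 CPM in adult libraries, with no overlap between ages. The adult values rest on 3 to 6 counts per library. Neonatal cells were lower than fetal ones (log2 fold change -3.07, SE 0.241, edgeR quasi-likelihood test, Benjamini-Hochberg adjusted p = 4.41e-05). Adult cells were lower again, at -5.18 against fetal (SE 0.303, edgeR adjusted p = 5.23e-07) and -2.11 against neonatal (SE 0.340, edgeR adjusted p = 0.000504). The fetal mean was 8.38 times the neonatal and 37.0 times the adult mean. Without fetal replicate 3, the log2 changes against fetal were -2.89 and -4.99.

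Tbx3, the repressor of the conduction tissue, was also highest in fetal cells but did not separate the postnatal ages. Its level was 18.1, 15.2 and 27.7 CPM in fetal, 1.93, 2.23 and 2.14 CPM in neonatal and 3.44, 1.66 and 1.27 CPM in adult libraries. The adult libraries lay on both sides of the neonatal ones. Compared with fetal cells, the log2 fold change was -3.27 in neonatal (SE 0.345, edgeR adjusted p = 0.000191) and -3.26 in adult cells (SE 0.354, edgeR adjusted p = 2.90e-05). Between adult and neonatal it was 0.01 (95% interval -0.93 to 0.95, edgeR adjusted p = 0.979), an interval wide enough to hold a change of nearly 1 in either direction, and without adult replicate 1 it was -0.51 (edgeR adjusted p = 0.226). Without fetal replicate 3, which held the highest value, the changes against fetal were -2.98 and -2.97.

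Tbx2, the near relative of Tbx3, fell less. It stood at 15.6, 11.8 and 13.7 CPM in fetal, 4.24, 4.41 and 4.79 CPM in neonatal and 3.83, 3.68 and 2.17 CPM in adult libraries. The ages did not overlap, yet the adult and neonatal values were close. From fetal to neonatal cells the log2 level changed by -1.61 (SE 0.207, edgeR adjusted p = 0.000548) and from fetal to adult cells by -2.08 (SE 0.217, edgeR adjusted p = 2.23e-05). Adult against neonatal was -0.47 and did not pass the threshold (95% interval -1.02 to 0.07, edgeR adjusted p = 0.0915). In contrast to the other genes with high fetal levels, fetal replicate 3 held the same Tbx2 level as the mean of the other two, at a ratio of 1.00.

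Tbx18, the epicardial and mural gene, followed a different course and peaked in neonatal cells. It was at 19.7, 20.02 and 10.2 CPM in fetal, 39.3, 46.1 and 46.3 CPM in neonatal and 25.0, 28.2 and 27.0 CPM in adult libraries. No ages overlapped, and fetal replicate 3 was at 0.514 of the mean of the other two fetal libraries. Compared with fetal cells, Tbx18 was higher by log2 1.40 in neonatal cells (SE 0.218, edgeR adjusted p = 0.00158) and by 0.68 in adult cells (SE 0.220, edgeR adjusted p = 0.0197), and from neonatal to adult cells it changed by -0.71 (SE 0.215, edgeR adjusted p = 0.0164). The neonatal mean was 2.64 times the fetal and 1.64 times the adult mean. Without fetal replicate 3 the changes against fetal cells were 1.15 and 0.43. Of the calls on these genes, only 2 of Tbx18 were lost with a library left out: adult against fetal without adult replicate 2 (0.64, edgeR adjusted p = 0.0582) and adult against neonatal without neonatal replicate 2 (-0.68, edgeR adjusted p = 0.0505).

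The mural and epicardial markers were read beside Tbx18. Of 8 mural markers, 5 were higher in every neonatal library than in any fetal or adult one, as Tbx18 was. Another 1 was higher in every fetal library than at any other age. In every adult library 3 were lower than at any other age, whereas Tbx18 was lowest in fetal libraries. The 8 summed to 1004 CPM in fetal replicate 3, against 2079 and 2083 in the other fetal libraries and 1476 to 1683 in adult ones. The 9 epicardial or mesothelial markers in the table summed to 262 to 346 CPM in fetal, 141 to 144 in neonatal and 184 to 472 in adult libraries. That sum was lowest at the neonatal age, where Tbx18 was highest, but single markers mostly were not. Of the 9, 7 were lower in every adult library than at any other age, and 1 in every neonatal one. In turn, 7 were higher in every fetal library than at any other age, and 1 in every adult one. Aldh1a2 alone stood at 169 to 437 CPM in adult libraries. Wt1, the epicardial transcription factor, stood at 9.83 to 10.7 CPM in fetal, 8.59 to 9.45 in neonatal and 9.66 to 20.3 in adult libraries. The part of mural or epicardial cells in the Tbx18 level was not tested.

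Tbx20, the factor of cardiomyocytes and endocardium, was highest in neonatal and lowest in adult cells. It stood at 26.0, 31.1 and 24.7 CPM in fetal, 54.9, 52.7 and 44.5 CPM in neonatal and 16.4, 10.0 and 11.3 CPM in adult libraries, again with no overlap. From fetal to neonatal cells its log2 level rose by 0.89 (SE 0.168, edgeR adjusted p = 0.00373). Adult levels were below both, at -1.12 against fetal (SE 0.179, edgeR adjusted p = 0.000374) and -2.01 against neonatal (SE 0.180, edgeR adjusted p = 1.26e-05). The neonatal mean was 1.86 times the fetal and 4.03 times the adult mean.

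Cardiomyocyte RNA fell across the same ages at which Tbx5 fell, but not in the order of Tbx20. All 13 cardiomyocyte markers in the table were lower in every adult library than in any other, and 12 of 13 were higher in every fetal library than at any other age. In adult libraries 6 of the 13 (Myh6, Myh7, Tnni1, Myl2, Myl7 and Csrp3) were at or below 3 counts, and most of the adult sum was the troponin gene Tnnt2 at 303 to 316 CPM. In the adult libraries Tbx18 had 327 to 391 counts, Tbx20 139 to 214, Tbx4 27 to 66, Tbx2 29 to 51, Tbx3 17 to 45 and Tbx5 3 to 6. Sinoatrial markers also declined, summing to 50.2 to 67.7 CPM in fetal, 20.2 to 27.2 in neonatal and 8.39 to 10.3 in adult libraries, with Hcn4 and Isl1 at 0 in all adult ones. Endothelial markers were low, at 17.2 to 20.7, 23.6 to 28.9 and 92.3 to 108 CPM. The part of cardiomyocytes in the T-box levels was not tested.

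**Figure D2:**
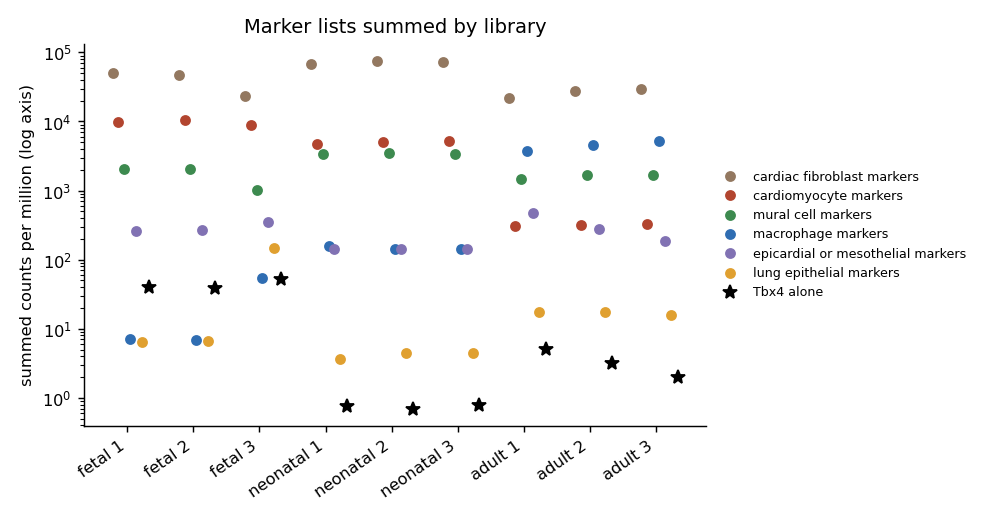
Summed level of each marker list in every library, in CPM on a log axis, with Tbx4 alone as stars. Cardiomyocyte markers drop from 8824 to 10613 in fetal to 311 to 323 in adult libraries while macrophage markers climb to 3679 to 5213, and the lung epithelial sum of fetal replicate 3 stands at 145.

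Counted together, neonatal against fetal, 2 of the 5 tested genes were higher (Tbx18 and Tbx20) and 3 lower (Tbx2, Tbx3 and Tbx5), where 36.3% of all genes tested passed the same edgeR threshold (18.3% of those tested upward and 18.0% downward). Scaled by library size alone the upward share of the called genes was 29.0% instead of 50.4%, and the median log2 change of all genes was -0.18 instead of -0.01; the 5 calls stayed in place. Adult against fetal, 1 gene was higher (Tbx18) and 4 were lower, against a background of 70.5% (34.9% upward, 35.5% downward). Without adult replicate 2, 0 of the 5 were called higher. Adult against neonatal, 0 were higher, 3 were lower (Tbx5, Tbx18 and Tbx20) and 2 were not called, against 63.5% (31.6% upward, 31.8% downward). Ages were free of overlap for 5, 5 and 4 of the 5 genes in these comparisons, as they were for 57.4%, 71.8% and 76.1% of all genes. In each adult comparison most of the genes tested were called, so those counts of members do not set these genes apart. The first 2 comparisons share the fetal libraries, and each other pair shares an age as well.

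**Figure D3:**
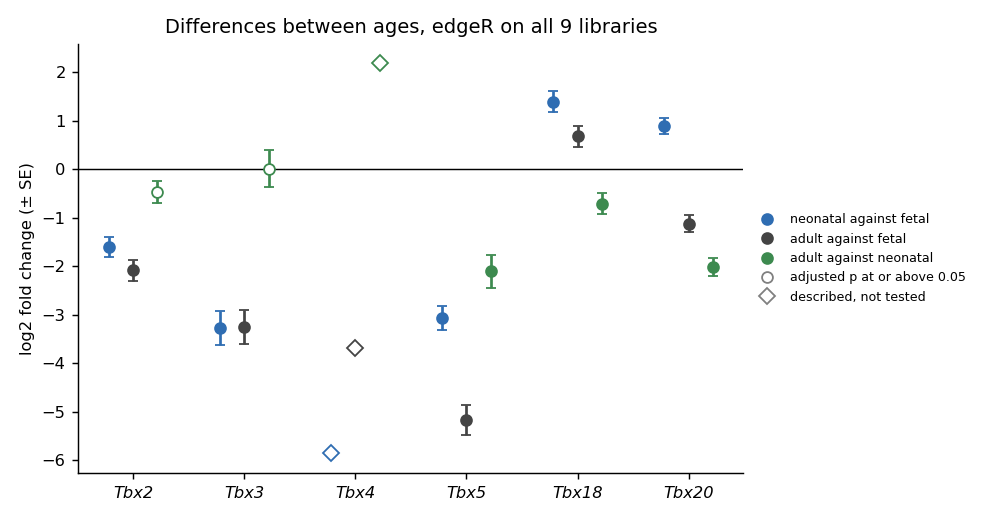
Log2 fold change of each gene in the 3 comparisons, with SE bars from the edgeR fit on 9 libraries; open circles did not pass adjusted p under 0.05 and the open diamonds of Tbx4 were not tested. Only Tbx18 and Tbx20 lie above 0 for neonatal against fetal (1.40 and 0.89), and Tbx4 alone lies well above 0 for adult against neonatal (2.18).

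To compare levels between genes, CPM were divided by the exon length of each gene in kilobases. In fetal libraries the mean level per kb ran from Tbx20 (15.9 CPM per kb) through Tbx4 (13.5), Tbx2 (11.1), Tbx3 (9.12) and Tbx5 (8.05) to Tbx18 (3.61). Each of the first 4 overlapped its next neighbour across libraries, so their order is not settled, and only Tbx18 was below all others. In neonatal libraries the order was Tbx20 (29.7), Tbx18 (9.52), Tbx2 (3.63), Tbx5 (0.960), Tbx3 (0.940) and Tbx4 (0.230), where only Tbx5 and Tbx3 overlapped. In adult libraries it was Tbx20 (7.36), Tbx18 (5.80), Tbx2 (2.62), Tbx4 (1.05), Tbx3 (0.953) and Tbx5 (0.218), with overlap between Tbx20 and Tbx18 and between Tbx4 and Tbx3. Tbx4 thus moved from the second highest mean of the 6 in fetal to the lowest in neonatal libraries.

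Both the size and the make-up of the summed T-box level differed between ages. The 6 genes added up to 57.5 to 66.6 CPM per kb in fetal, 42.2 to 46.4 in neonatal and 15.6 to 21.4 in adult libraries, with no overlap. Tbx18 and Tbx20 made up 32.6, 39.2 and 25.0% of that sum in the fetal, 87.8, 88.0 and 85.5% in the neonatal and 70.0, 70.7 and 80.1% in the adult libraries. Tbx20 alone gave 26.3 ± 5.03% of the sum in fetal and 65.9 ± 3.87% in neonatal libraries (SD, n = 3), while the share of Tbx4 was 21.8 ± 2.39% at the fetal, 0.513 ± 0.0523% at the neonatal and 5.66 ± 1.62% at the adult age. Among all tested genes by level per kb, the mean of Tbx20 stood at percentiles 58.1, 74.0 and 37.8 in fetal, neonatal and adult libraries. The other 5 genes stood at or below percentile 53.3 at every age.

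**Figure D4:**
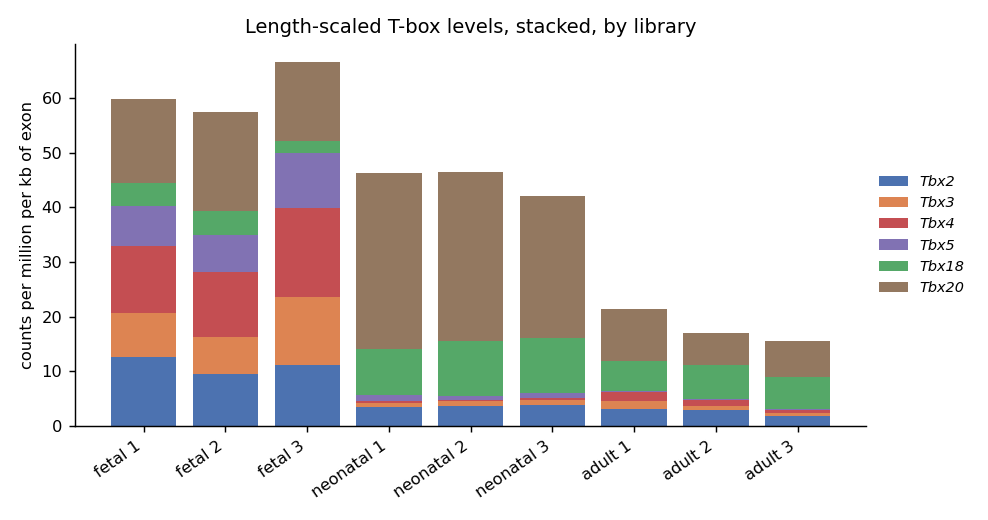
Levels of the 6 genes in CPM per kb of exon, stacked for each library. The fetal bars are the tallest (57.5 to 66.6) and hold all 6 genes, whereas Tbx18 and Tbx20 fill 85.5 to 88.0% of the neonatal bars.

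Across the 9 libraries the log2 levels of Tbx2 and Tbx5 ran together (Pearson r = 0.969), as did those of Tbx2 and Tbx3 (0.958) and of Tbx3 and Tbx4 (0.925). The neighbours Tbx2 and Tbx4 were less alike (0.830), and Tbx4 ran against Tbx18 (-0.915). Tbx18 and Tbx20, which both peaked in neonatal cells, had r = 0.386 (0.549 without fetal replicate 3). These are descriptions over libraries of 3 ages, which share the age difference, and carry no test.

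The nearest other genes did not all share the course of the T-box genes. Bcas3, 7.15 kb below Tbx2, was at mean levels of 19.8, 29.3 and 39.2 CPM in fetal, neonatal and adult libraries and was higher in all 3 comparisons, by log2 0.56, 0.98 and 0.42 (edgeR adjusted p = 0.00897, 9.27e-05 and 0.0151). Ints2, a subunit of the Integrator complex 270 kb above Tbx4, was lower in all 3, at 45.7, 27.8 and 16.8 CPM with log2 changes of -0.72, -1.44 and -0.73 (edgeR adjusted p = 0.000764, 1.79e-06 and 0.000217). So the Tbx2 and Tbx4 pair, both high in fetal cells, lies between a gene that was higher and a gene that was lower after birth. Beside Tbx5 and Tbx3, Lhx5 and Oas1d had 0 counts in every library, and RGD1562310, 1428 kb above Tbx3, was called only for adult against neonatal (log2 -0.44, edgeR adjusted p = 0.0158). Nt5e, the ecto-nucleotidase CD73, 582 kb above Tbx18, was higher in all 3 comparisons, at 17.1, 77.5 and 203 CPM (log2 2.18, 3.56 and 1.39, edgeR adjusted p = 1.60e-06, 3.46e-09 and 1.00e-06), while Cep162 on the other side was not called in any. Around Tbx20, Dpy19l1 (115, 104 and 158 CPM) was higher in adult than in fetal and neonatal cells (log2 0.46 and 0.61, edgeR adjusted p = 0.000301 and 7.06e-05), and Herpud2 (43.2, 84.0 and 53.1 CPM) peaked in neonatal cells, as Tbx20 did (log2 0.96 from fetal to neonatal and -0.66 from neonatal to adult, edgeR adjusted p = 0.00107 and 0.00251).

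Of 11 further T-box genes listed, 7 were matched in the count table and 2, Tbx6 and Tbx19, had enough counts to test. Tbx6, a factor of the presomitic mesoderm, averaged 0.364, 0.447 and 1.27 CPM in fetal, neonatal and adult libraries. It was higher in adult cells than in fetal ones (log2 1.77, SE 0.330, edgeR adjusted p = 0.000960) and neonatal ones (log2 1.48, SE 0.325, edgeR adjusted p = 0.00314), on 16 to 18 counts per adult library. Tbx19 was not called in any comparison. Tbx1, which acts in the pharyngeal mesoderm and second heart field, had 17, 22 and 5 counts in fetal libraries and at most 2 elsewhere. Against a floor of 3 counts per library it was at least 4.32-fold lower in neonatal and at least 3.21-fold lower in adult cells (5.68-fold and 4.22-fold without fetal replicate 3), for counting error only. Tbx15 had 39 counts in fetal replicate 3 and 2 and 4 in the other fetal libraries, with 4 to 8 in neonatal and 1 to 4 in adult ones. Tbr1, Tbx21 and Tbx22 had at most 5 counts in any library.

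RNA of partners and co-regulators of T-box proteins was read next. Of 17 listed partners and co-regulators, 13 could be tested: 2 were higher and 6 lower in neonatal than fetal cells, 2 and 7 in adult than fetal cells, and 1 and 7 in adult than neonatal cells. The median log2 changes of the 13 were -0.20, -0.97 and -0.66, beside -0.01 in each comparison for all genes tested. The shares of all genes tested that were called in these comparisons were 36.3%, 70.5% and 63.5%, so the partners' counts in the adult comparisons are near the background. Tle1, a Groucho corepressor, was the partner with the smallest p over the ages, at mean levels of 22.3, 6.33 and 4.2 CPM in fetal, neonatal and adult libraries (log2 -1.82, -2.41 and -0.59, edgeR adjusted p = 8.16e-06, 9.27e-08 and 0.00103). Its relative Tle3 rose instead, from 65.4 to 97.6 and 141 CPM (log2 0.58, 1.11 and 0.54, edgeR adjusted p = 0.000342, 7.15e-07 and 0.000110). Gata5, a heart and endocardial GATA factor, was at 12.2 CPM in fetal and 3.21 in neonatal libraries (log2 -1.92, edgeR adjusted p = 0.000452) and at 0 in adult ones, at least 54.4-fold below fetal and 14.3-fold below neonatal. Gata4 was highest in neonatal cells, as Tbx20 was, at 220 to 223 CPM against 101 to 157 in fetal and 131 to 153 in adult libraries (log2 0.69 and, for adult against neonatal, -0.66; edgeR adjusted p = 0.00732 and 0.00377). Nkx2-5 and Isl1, which like Gata5 had 0 counts in all adult libraries, fell with the cardiomyocyte markers. Leaving out any 1 neonatal library left 3 partners called lower in neonatal cells instead of 6.

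Upstream signals held genes that moved in either direction. Of 17 listed BMP, retinoic acid and hedgehog genes, all found by symbol, 15 had enough counts: 2 were higher and 7 lower in neonatal than fetal cells, 3 and 10 in adult than fetal cells, and 2 and 6 in adult than neonatal cells, with median log2 changes of -0.40, -0.52 and -0.34. The shares called over all genes tested, 36.3%, 70.5% and 63.5%, apply to these counts too. Bmp7 went from 27.98 CPM in fetal to 4.90 in neonatal (log2 -2.51, edgeR adjusted p = 5.90e-05) and 0 in adult libraries, at least 125-fold below fetal and 21.9-fold below neonatal. Bmp2, Bmp4 and Bmp5 were also lower in adult than fetal cells (log2 -1.30 and -0.52, edgeR adjusted p = 0.00838 and 0.0161, for Bmp2 and Bmp4; Bmp5 at least 12.9-fold, with 0 counts in adult libraries). Bmp6 alone of the tested BMP ligands went up, from 16.6 to 27.9 CPM in fetal to 77.2 to 86.5 in neonatal and 116 to 150 in adult libraries (log2 1.78, 2.47 and 0.69, edgeR adjusted p = 0.000191, 3.30e-06 and 0.00735). The receptors declined: Bmpr1a from 85.3 to 67.4 and 23.3 CPM (log2 -0.34, -1.87 and -1.53, edgeR adjusted p = 0.0320, 5.84e-07 and 3.49e-06) and Bmpr2 from 117 to 81.5 and 42.2 CPM (log2 -0.52, -1.47 and -0.95, edgeR adjusted p = 0.00686, 3.26e-06 and 7.80e-05). Aldh1a2, which makes retinoic acid and is also an epicardial marker, was higher in adult cells, at 169 to 437 CPM against 67.9 to 115 in fetal ones (log2 1.53, edgeR adjusted p = 0.00260). Shh had 0 counts in every library, while the hedgehog receptor and target Ptch1 was higher in fetal cells (log2 -1.21 for fetal to neonatal, -0.99 for fetal to adult, edgeR adjusted p = 0.000255 and 0.000133). Gli1, the other hedgehog target listed, was not called in any comparison (edgeR adjusted p = 0.478, 0.627 and 0.223), on at most 20 counts per library. Without any 1 neonatal library 4 rather than 7 upstream genes were called lower in neonatal cells, and without fetal replicate 3, 10 rather than 6 were called lower in adult than neonatal cells.

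Genes described as direct T-box targets had wider median changes than the partners or upstream genes. All 18 listed were tested: 3 were higher and 10 lower in neonatal than fetal cells, 3 and 11 in adult than fetal cells, and 4 and 10 in adult than neonatal cells, with median log2 changes of -0.79, -2.23 and -1.09, against 36.3%, 70.5% and 63.5% of all genes tested called in either direction. Nppb and Smpx, both cardiomyocyte genes, were among the 3 with the smallest p over the ages. Nppb, the natriuretic peptide, stood at 401, 215 and 0.971 CPM (log2 -0.90, -8.68 and -7.78, edgeR adjusted p = 0.00981, 5.32e-08 and 1.62e-07). Smpx, a small muscle protein, was at 64.2 and 25.8 CPM in fetal and neonatal libraries (log2 -1.31, edgeR adjusted p = 8.87e-05) and at 0 in adult ones, at least 287-fold and 116-fold lower. Both fell in the order of the cardiomyocyte marker sum given above, and which cells held them was not tested.

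Among the other listed targets, some were higher and some lower after birth. Id2, an inhibitor of basic helix-loop-helix factors, rose from 15.9 to 19.3 CPM in fetal to 52.8 to 55.1 in neonatal and 90.2 to 122 in adult libraries (log2 1.57, 2.5 and 0.93, edgeR adjusted p = 4.74e-05, 2.33e-07 and 0.000126). Gja5, the connexin 40 gene that Tbx5 activates, rose while Tbx5 fell, at 49.2 to 55.7, 80.9 to 83.1 and 109 to 194 CPM (log2 0.65, 1.40 and 0.75, edgeR adjusted p = 0.0315, 0.000205 and 0.00847). Gja1, the connexin 43 gene repressed by Tbx2 and Tbx3, fell in all 3 comparisons, from 402 to 409 CPM in fetal to 93.6 to 100.1 in neonatal and 17.0 to 33.4 in adult libraries (log2 -2.08, -4.08 and -2.00, edgeR adjusted p = 0.000110, 3.31e-07 and 2.84e-05), whereas Tbx2 and Tbx3 were not called between neonatal and adult cells. Fgf10, which Tbx4 and Tbx5 activate in the lung and limb buds, was higher in neonatal and adult than in fetal cells (log2 1.56 and 2.06, edgeR adjusted p = 0.00150 and 5.09e-05). Cdh1, the epithelial cadherin repressed by Tbx2 and Tbx3, was lower in neonatal and adult than in fetal cells (edgeR adjusted p = 0.0333 and 0.0217), but its fetal mean rests on fetal replicate 3, at 113 CPM beside 1.30 and 2.34 in the other two.

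**Figure D5:**
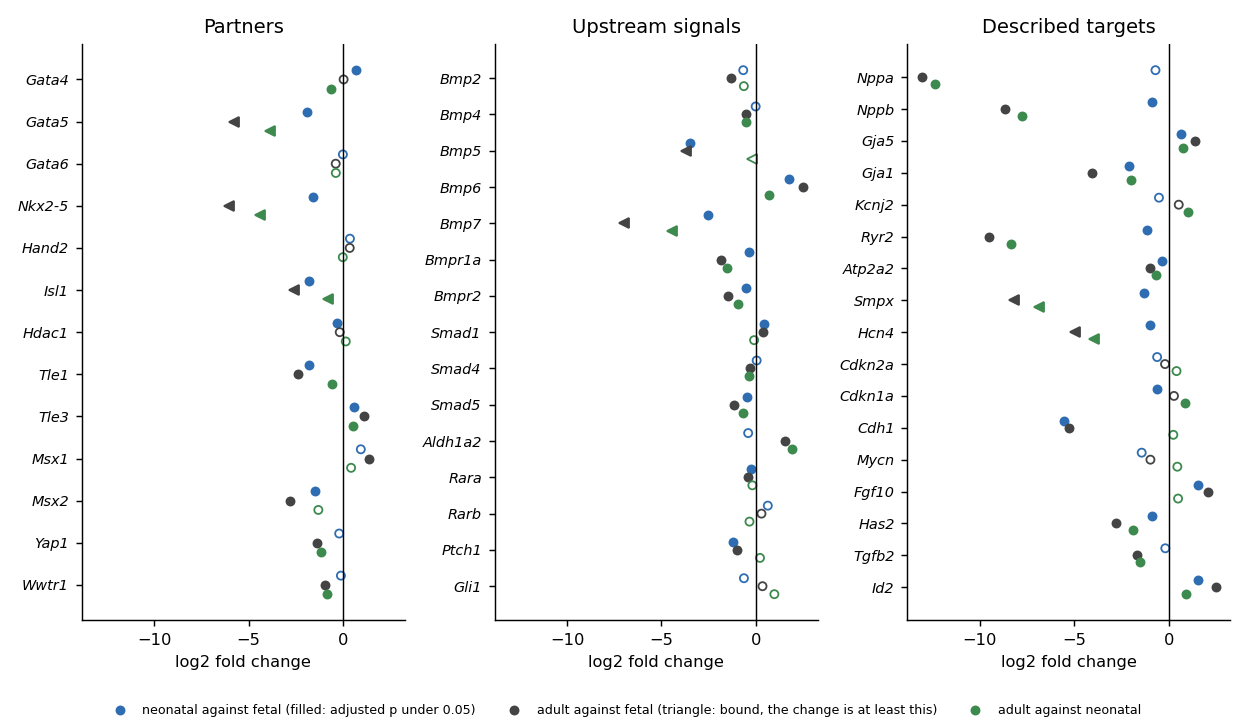
Log2 fold change of the tested partners, upstream genes and described targets in the 3 comparisons, less 1 target that is not reported (filled, edgeR adjusted p under 0.05; open, not called; triangles, bounds for genes at 0 in adult libraries). Most points lie left of 0, with Id2, Gja5, Bmp6 and Tle3 among the genes to its right in all 3 comparisons.

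By likeness over the 9 libraries, among 8938 genes with a mean of at least 10 CPM at some age, the genes most like Tbx4 in log2 level were Dchs1 (Pearson r = 0.983), Gldn (0.978) and Nip7 (0.976). Gldn, which encodes gliomedin, had a range close to that of Tbx4, at mean levels of 59.3, 1.58 and 7.70 CPM in fetal, neonatal and adult libraries, while Dchs1, a large cadherin, spanned much less (92.1, 46.8 and 61.0 CPM). Only 22 genes reached r of 0.95 with Tbx4, the fewest of the 6 members. Tbx5 had 255 such genes, led by Sgms1, Wdr43 and Plagl1 (each r = 0.994), of which Plagl1, an imprinted zinc-finger gene, went from 103 to 7.42 and 0.898 CPM. Tbx2 was most like Neurl4 (0.987), Dpf1 (0.987) and Ttll12 (0.981), and Tbx3 most like Etv4 (0.989), Nxn (0.987) and Phactr2 (0.984). Tbx18 was most like Wipi1 (0.992), Pqlc3 (0.990) and Klf10 (0.990), and Tbx20 most like Sptbn1 (0.995), the spectrin gene at 1171, 1628 and 735 CPM, Ankib1 (0.992) and Sbf2 (0.992). With ranks in place of levels, 0 of the 3 genes named for Tbx4, Tbx5, Tbx18 or Tbx20 and 1 of the 3 for Tbx2 were among the 10 most alike, so which names lead depends on the measure.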

How the data were processed

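RNA-seq gene counts of 9 libraries were read from the deposited table. Per the file headers, the authors counted reads per gene with featureCounts 1.6.3 on an rn6 annotation, giving no strand option, so reads from overlapping genes on opposite strands were not separated. The submitters' processing notes also name FastQC, Trimmomatic 0.39, STAR 2.5.2b, Subread 1.6.3 and DESeq2, with no order given. Exon length in bases is from the same deposited table. A second deposited table held normalized signal; its values equal the counts divided by 1 factor per library, and it was used only for that check. No column of per-sample values was left out.

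Counts were tested here with edgeR 4.0.16 in R 4.3.3: filterByExpr, TMM scaling and a robust quasi-likelihood fit to all 9 libraries on age alone. Benjamini-Hochberg adjustment ran over the 11337 genes tested, and adjusted p under 0.05 was called. The fit was tested on simulated counts. Log2 levels used a prior count of 2, and 95% intervals came from the fitted standard errors. A gene at or below 3 counts in every library of an age is given a bound against that floor. Library totals (13392825 to 22850491 counts) set the precision. Bounds cover counting error only, whereas the intervals include the spread between libraries. The members, gene lists and marker lists were chosen with earlier results of these data known. Named were all members, other T-box genes with at least 10 counts in a library, the nearest gene on each side, the 3 most alike genes per member and the 3 genes per list with the smallest adjusted p over the ages; all others named, such as Gata4, Bmp2, Bmp4, Bmp5, Bmp6, Aldh1a2, Ptch1, Nkx2-5, Isl1, Shh, Id2, Gja5, Gja1, Fgf10 and Cdh1, were chosen after their values were seen. Some listed genes count in the list totals and sums but are not reported here by name. Alternatives were DESeq2 1.42.0, its size factors, library size alone, no filter, a replicate block, only the 2 ages compared, and leaving out each library. No pair of libraries agreed within counting noise (chi-square per degree of freedom 2.05 to 97.3).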

Additional observations from a re-analysis of the deposited data

How the results depend on the processing

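The 360 recomputed values for the 6 genes were log2 changes and counts of members called, and 353 of them were classed as the same under the alternatives run. For a tested gene this meant the same direction and the same side of the threshold. For Tbx4 it meant the same direction and a difference within the spread between libraries, and for a count it meant within 1.5 times. Tbx18 adult against fetal lost its call without adult replicate 2 (log2 0.64, edgeR adjusted p = 0.0582), which left 0 members called higher; its range with 1 library left out was 0.43 to 0.84. Tbx18 adult against neonatal lost its call without neonatal replicate 2 (log2 -0.68, edgeR adjusted p = 0.0505; range -0.80 to -0.67). Tbx3 adult against neonatal changed sign with no filter (log2 -0.016), with a replicate block (-0.014), without neonatal replicate 1 (-0.05) and without adult replicate 1 (-0.51), within a leave-one-out range of -0.51 to 0.27; it was never called, and the cause was not tested. Same-numbered libraries showed no sign of pairing: their deviations correlated at -0.06 to 0.05, none of 9 above 0.1. With 3 libraries per age that check is weak, and a shared batch was not tested. The replicate block gave 3713, 7801 and 6985 genes called in place of 4114, 7987 and 7197, and changed no other call of a member. Over all genes, those lower in neonatal than fetal cells numbered 2040, but 1090 to 1152 without 1 neonatal library and 3325 scaled by library size alone, where those higher numbered 1360 in place of 2074. Partners called higher in adult than neonatal cells numbered 2 instead of 1 without fetal replicate 3 or with only those 2 ages fitted. Of 576 other recomputed values, 557 were within 1.5 times or the spread. Depth limits Tbx5 in adult libraries, at 3 to 6 counts, and the T-box genes outside the members.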
